A study of Mus musculus with 21 samples.

Results

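The subject here was the interaction of Gpr124 genotype with stroke in brain endothelial cells, the cells that line the blood vessels of the brain. For each gene it is 1 number, the stroke effect in knockout mice minus the stroke effect in control mice. A value of 0 means that stroke moved the gene equally in both genotypes, a negative value that the knockout effect lay below the control effect, and a positive value that it lay above. All 16 libraries of the stroke experiment entered, out of 21 libraries in the series, and 9838 genes with a mean of at least 1 RPKM over the 16 libraries were tested out of 24201 gene names. The authors deposited RPKM, in which the reads of a gene are scaled to its length and to the size of the library. Differences are given on the log2(RPKM + 1) scale, which understates the change of a gene at low RPKM.

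The mice were adult C57BL/6 animals of 12 to 20 weeks. All 4 groups had the middle cerebral artery closed for 1 hour and reopened for 1 day, and all carried ROSA-CreER, a Cre recombinase fused to an estrogen receptor part and driven from the ROSA locus, which is active in most cell types and not in endothelium alone. Controls (WT) were Gpr124 flox/+, with 1 allele that Cre can delete and 1 intact allele, and knockouts (Cko) were Gpr124 flox/-, with 1 deletable and 1 null allele. WT-NS and Cko-NS came from the hemisphere without the stroke and WT-ST and Cko-ST from the hemisphere with it, with n = 4 libraries each. The NS groups are therefore the other side of brains that had a stroke, not brains without one. Live cells were sorted for the endothelial surface protein CD31, and cells with CD45 (leukocytes) or PDGFRb (pericytes) were discarded. The labels do not say which libraries came from the same mouse, and the spread behind each p-value is that between libraries, which may be technical.

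Gpr124, also called Adgra2, is an adhesion G protein-coupled receptor. Together with the anchored protein Reck it helps Wnt7a and Wnt7b reach Frizzled receptors on brain endothelial cells, which stabilises beta-catenin (Ctnnb1) and drives target genes such as Axin2, Lef1, Apcdd1 and the glucose transporter Slc2a1. The pathway is needed for vessel growth into the embryonic brain and for the blood-brain barrier, the tight lining that controls what passes from blood to brain. Whether stroke acts on the endothelium differently when the receptor is lost is the question that the difference of the 2 stroke effects addresses.

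Gpr124 itself was low in all libraries, which limits it as a check of the labels, as does the 3' end counting, since a transcript that lacks the deleted part can still be counted at its end. It measured 3.01, 7.58, 4.74 and 2.65 RPKM in WT-NS and 8.12, 5.94, 2.92 and 2.98 in WT-ST. In the knockouts it measured 2.03, 0.994, 3.15 and 4.85 RPKM in Cko-NS and 0.5002, 1.72, 1.72 and 1.52 in Cko-ST. Every Cko-ST library lay below every WT-ST library, while Cko-NS and WT-NS overlapped. The stroke effect differed between genotypes by -0.71 with a 95% interval of -1.87 to 0.45 (adjusted p = 0.82).

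Estimated depth ran from 4.72 to 19.6 M reads per library, and 13140 to 14362 gene names were above 0. The endothelial genes Pecam1 (142 to 254 RPKM) and Cdh5 (214 to 559.9 RPKM) were high in all 16 libraries, the pericyte gene Pdgfrb stayed at or below 0.716 RPKM, and the leukocyte gene Ptprc, which encodes CD45, reached 8.92 RPKM in Cko-NS 1. Pdgfrb is 1 of 12 mural markers, those of pericytes and vessel muscle. Their sum was 50.7 to 70.6 RPKM in WT-NS and 23.5 to 33.8 in Cko-NS, which do not overlap. In WT-ST it was 12.6 to 49.3 RPKM and in Cko-ST 15.6 to 102.7, highest in Cko-ST 4. Transcripts that mark other cell types were not rare: the 10 oligodendrocyte markers summed to 56.7 to 2085 RPKM, the 13 red-cell and platelet markers to 1649 to 43300, the 10 astrocyte markers to 245 to 1168 and the 8 choroid plexus and ependymal markers to 12.1 to 1384. Most of the astrocyte sum was the gap junction gene Gja1, while Gfap, the defining astrocyte gene, was low in every library. In bulk RNA, fewer cells of a type and less RNA per cell cannot be told apart. By label all libraries were from females except Cko-ST 3 and Cko-ST 4, but Y-linked genes and Xist read male in Cko-NS 4, labelled female, and female in Cko-ST 3, labelled male. Both are kept under their labels, and the result without Cko-NS 4, Cko-ST 3 and Cko-ST 4 stands beside the main count.

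No gene passed the test of the difference. Of 9838 genes, 0 (0%) had a Benjamini-Hochberg adjusted p below 0.05 in limma, in either direction, and the lowest adjusted p was 0.447, held by Gstk1, Mrpl23 and Cpt2. After median-of-ratios scaling, which divides each library by its typical ratio to the average library, the count was again 0 (0%) and the lowest adjusted p 0.735. Without Cko-NS 4, Cko-ST 3 and Cko-ST 4 it was 0 as well. Below an unadjusted p of 0.05 there were 691 genes (7.02%), 118 with a higher (1.2%) and 573 with a lower effect (5.82%) in knockouts, where 5% would pass if nothing differed. The same count after scaling was 574 (5.83%), of which 242 were higher (2.46%) and 332 lower (3.37%). Genes named below for their difference are the ones that lead this ranking, and none of them passed.

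The 2 stroke effects share no library. In controls stroke raised 832 genes (8.46% of those tested) and lowered 476 (4.84%), 13.3% in all. In knockouts it raised 634 (6.44%) and lowered 857 (8.71%), 15.2% in all. Both genotypes shared 446 raised genes, which are 53.6% of those raised in controls and 70.3% of those raised in knockouts. Lowered genes shared by both numbered 330, which are 69.3% of those of controls and 38.5% of those of knockouts. No gene passed the test as raised in 1 genotype and as lowered in the other. By sign alone, whatever the p, the 2 effects had the same direction in 71.3% of all genes tested. The counts of lowered genes leaned on single libraries: 286 fell in controls without WT-ST 3, and 565 fell in knockouts without Cko-ST 1. Across all 9838 genes the effects correlated with r = 0.68. Genes are not independent, and both effects pass through the same cell sort and kit. The average stroke effect over both genotypes, by which the strongest responses below were chosen, passed the test for 2648 genes (26.9%), and choosing genes by it favours effects of the same sign.

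**Figure D1:**
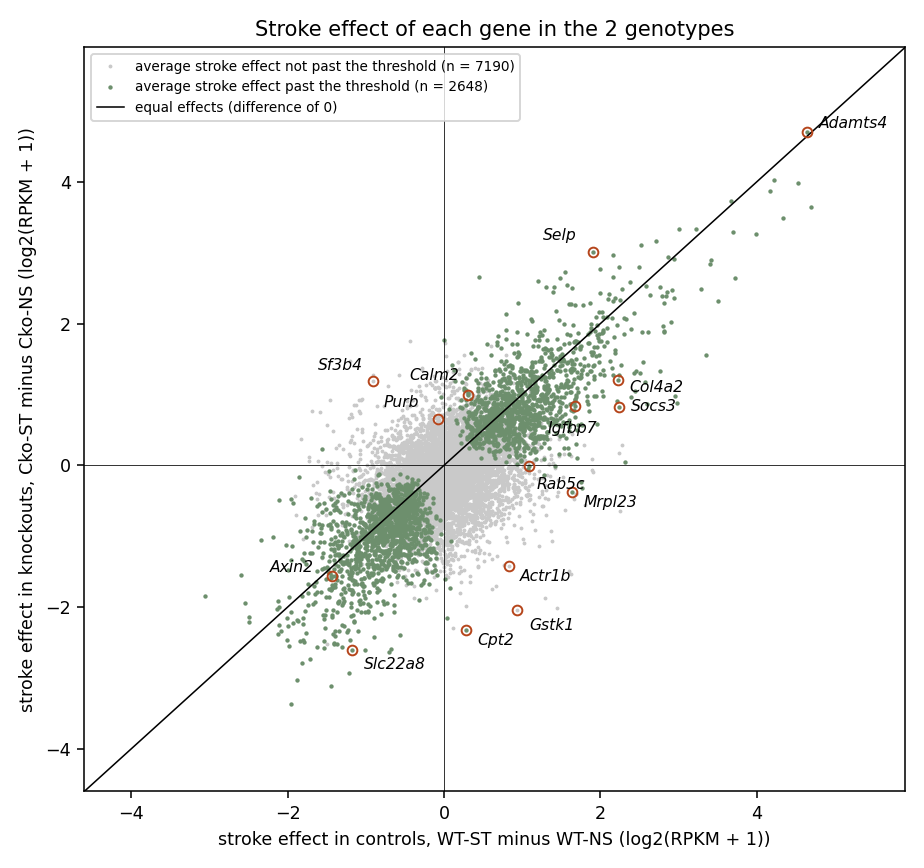
Stroke effect of each of the 9838 genes in controls (horizontal) and knockouts (vertical), both on the log2(RPKM + 1) scale, with green points for the 2648 genes whose average effect passed the test and circles for named genes. Distance from the diagonal line is the difference of the 2 effects, and Gstk1 (-2.99) and Cpt2 (-2.60) lie far below it while Adamts4 (0.06) and Axin2 (-0.13) lie close to it.

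A gene that is called in 1 genotype only is not thereby shown to differ. Of the 386 genes raised in controls and not called in knockouts, 90.7% had a positive effect in knockouts too, with medians of 1.15 and 0.45, and 0 passed the test of the difference, although 127 (32.9%) had an unadjusted p below 0.05. The 527 genes lowered in knockouts and not called in controls had medians of -1.12 and -0.48, and 141 (26.8%) of them had such a p. Among genes called in both genotypes in the same direction the share was 6.95% for raised and 6.67% for lowered genes. These shares are descriptions, since the sorting by calls uses the same 16 libraries.

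Adamts4, a protease that cuts matrix proteoglycans, measured 6.71, 2.22, 3.42 and 2.92 RPKM in WT-NS against 62.0, 80.1, 183 and 177 in WT-ST. Knockouts had 5.89, 2.43, 0.984 and 7.23 RPKM in Cko-NS against 143, 129, 69.9 and 133 in Cko-ST. Stroke and non-stroke libraries did not overlap in either genotype, and the 2 stroke effects were 4.64 and 4.70. Their difference was 0.06 ± 0.62 (SE), with a 95% interval of -1.24 to 1.36, and its sign turned when single libraries were left out.

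Among the other genes with the largest average rise, the membrane protein gene Emp1 had stroke effects of 4.53 in controls and 3.99 in knockouts, and the angiogenic peptide gene Apln 4.22 and 4.03. Rnd1, a small GTPase that loosens the actin skeleton, had effects of 3.67 and 3.73. All of these passed the stroke test in both genotypes. Their differences ran from -0.55 for Emp1 to 0.06 for Rnd1, with intervals about 1 unit wide on either side. Adamts9, another matrix protease, stood slightly apart at -0.73 ± 0.35 (unadjusted p = 0.049, adjusted p = 0.71). It measured 26.6, 8.46, 19.8 and 18.1 RPKM in WT-NS and 42.0, 33.5, 36.0 and 30.6 in Cko-NS, which do not overlap, against 281, 238, 337 and 289.9 in WT-ST and 349, 367, 282 and 400.1 in Cko-ST, which do.

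Among the largest falls, Dixdc1, which encodes a Wnt pathway scaffold, had stroke effects of -2.49 in controls and -2.21 in knockouts. The sulfotransferase gene Sult1a1 fell by 1.95 on the log2 scale in controls and by 3.37 in knockouts, a difference of -1.41 ± 0.64 (adjusted p = 0.70). It measured 109.8, 129, 125 and 142 RPKM in WT-NS, 38.5, 39.8, 15.8 and 41.6 in WT-ST, 223, 235, 249 and 169.7 in Cko-NS and 18.7, 15.9, 71.9 and 7.22 in Cko-ST. Both genotypes separated stroke from non-stroke libraries, and Cko-NS lay above WT-NS throughout. Cytl1, which encodes a small secreted protein, had effects of -1.44 in controls (adjusted p = 0.18) and -3.11 in knockouts (adjusted p = 0.0043), a difference of -1.67 ± 0.95 (adjusted p = 0.76). It was 87.3 RPKM in Cko-NS 4 and 5.55 to 9.28 in the other Cko-NS libraries, and the difference was -0.83 without Cko-NS 4 and -1.03 without WT-ST 1. Vstm2b fell by 1.98 in controls and by 2.55 in knockouts, a difference of -0.57 (interval -1.91 to 0.77). Itih5, whose product binds hyaluronan, fell by 1.82 in controls and by 2.78 in knockouts, a difference of -0.96 ± 0.43 (adjusted p = 0.69).

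Over all genes the difference leaned to negative values, and how far it did depended on scaling. Its median was -0.14 with quartiles of -0.50 and 0.17, and 61.8% of genes were below 0. After median-of-ratios scaling the median was 0.00 and 49.7% were below 0, so that values below are to be read against a median of -0.14. That median was not common to all genes. It ran from 0.01 to -0.40 over 5 equal bins of genes by GC content of the transcripts. Scaling factors were 1.04 to 1.12 in the 4 Cko-NS libraries, 0.95 to 1.01 in Cko-ST, 0.93 to 1.05 in WT-NS and 0.88 to 1.08 in WT-ST.

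Precision limits what a count of 0 can say. The median SE of the difference was 0.46, and the median 95% interval reached 0.97 to either side, so a typical gene had to differ by about 1 log2 unit for its own interval to leave 0. For 2274 genes (23.1%) the whole interval lay between -1 and 1, and 2-fold differences on this scale lie outside those intervals. For the other genes at least 1 end of the interval reached past 1 log2 unit.

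The 573 genes with an unadjusted p below 0.05 and a lower knockout effect took 3 shapes. The control effect was positive and the knockout effect negative in 358 (62.5%, against 19.1% of all genes), the rise was smaller in knockouts in 115, and the fall was deeper in 100. In 342 of the 573 genes (59.7%) WT-NS had the lowest mean of the 4 groups, and in 225 (39.3%) Cko-ST had. Over all genes these shares were 32.0% and 31.4%. Cko-NS had the highest mean in 368 (64.2%, against 34.2% of all genes). A negative difference by its arithmetic favours a low WT-NS, a low Cko-ST or a high Cko-NS, so these shares describe the genes and are no separate result.

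Of the 12 named genes with the lowest p on the negative side, Gstk1, Cpt2 and Mrpl23 came first. Gstk1 (chr6:42245935-42250447, plus strand, GRCm38) encodes a glutathione transferase of mitochondria and peroxisomes. It measured 9.24, 6.74, 9.64 and 4.01 RPKM in WT-NS and 7.16, 9.67, 25.9 and 23.2 in WT-ST, which overlap. In knockouts it measured 56.9, 22.2, 23.7 and 14.1 RPKM in Cko-NS and 3.96, 6.06, 6.498 and 5.57 in Cko-ST, which do not. The stroke effect was 0.94 in controls (adjusted p = 0.15) and -2.05 in knockouts (adjusted p = 0.0027), and the difference was -2.99 ± 0.59 (95% interval -4.22 to -1.75, unadjusted p = 7.96e-05, adjusted p = 0.447).

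Cpt2 (chr4:107903981-107923610, minus strand), which frees fatty acids for oxidation inside mitochondria, measured 3.96, 5.34, 2.29 and 3.48 RPKM in WT-NS and 3.93, 4.70, 4.68 and 5.30 in WT-ST. It measured 18.8, 7.23, 4.31 and 20.7 RPKM in Cko-NS and 1.27, 1.66, 1.77 and 0.822 in Cko-ST. Control hemispheres overlapped, and every Cko-ST library lay below every other library. The difference was -2.60 ± 0.54 (adjusted p = 0.447) and shrank to -1.5 with a pseudocount of 5, since these levels are low.

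Mrpl23 (chr7:142532686-142540747, plus strand), a protein gene of the mitochondrial ribosome, differed through a low WT-NS. WT-NS measured 1.45, 1.97, 2.98 and 3.16 RPKM, below every library of the other 3 groups. WT-ST measured 11.5, 10.0, 7.01 and 9.31, Cko-NS 6.85, 10.6, 6.93 and 14.7, and Cko-ST 4.58, 8.26, 7.003 and 8.83, and these 3 overlapped. Mrpl23 rose by 1.64 with stroke in controls (adjusted p = 0.00097) and had an effect of -0.37 in knockouts (adjusted p = 0.43), a difference of -2.01 ± 0.41 (adjusted p = 0.447), or -1.23 with a pseudocount of 5.

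Timm8b and Chchd4, both in the machinery that brings proteins into the space between the mitochondrial membranes, differed by -1.43 ± 0.31 and -2.09 ± 0.50 (adjusted p = 0.47 and 0.68). Timm8b was 27.8 to 31.9 RPKM in WT-NS, 32.7 to 59.6 in WT-ST, 38.8 to 50.03 in Cko-NS and 19.7 to 39.5 in Cko-ST, so WT-NS was below both WT-ST and Cko-NS. Chchd4 was 1.30 to 5.44 RPKM in WT-NS and 5.55 to 15.0 over the other 12 libraries.

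Rab5c (chr11:100715009-100738215, minus strand), a GTPase of early endosomes, measured 31.1, 29.9, 20.2 and 28.4 RPKM in WT-NS. It measured 62.8, 63.7, 58.5 and 50.8 RPKM in WT-ST, 85.0, 52.2, 57.2 and 57.8 in Cko-NS and 70.3, 66.6, 61.5 and 50.5 in Cko-ST, 3 groups that overlapped. The stroke effect was 1.09 in controls (adjusted p = 0.00082) and 0.00 in knockouts, and the difference was -1.09 ± 0.27 (adjusted p = 0.68).

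Erh, which encodes a small protein of mRNA processing, measured 40.8, 47.9, 58.7 and 32.7 RPKM in WT-NS and 109, 165, 162 and 158 in WT-ST. The knockouts gave 87.9, 69.0, 82.0 and 95.8 RPKM in Cko-NS and 105, 140.3, 114 and 142 in Cko-ST. Stroke libraries lay above non-stroke libraries in both genotypes, and Cko-NS lay above WT-NS. The difference was -1.14 ± 0.27 (adjusted p = 0.68). Actr1b, a subunit of the dynactin motor complex, differed by -2.24 ± 0.49 (adjusted p = 0.47). It was 3.54 to 4.71 RPKM in WT-NS and 11.6, 11.7, 15.6 and 43.5 in Cko-NS, where the highest value belongs to Cko-NS 4.

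The other genes among the 12 were Nagpa (-2.37 ± 0.58), an enzyme that finishes the sorting tag of lysosomal proteins, Erap1 (-2.07 ± 0.51), which trims peptides for MHC class I, and Mtmr11 (-1.61 ± 0.43), a relative of the myotubularin lipid phosphatases. Their adjusted p was 0.68 in each case, and their levels were under 13 RPKM except for Mtmr11, which reached 38.8 RPKM in WT-ST.

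**Figure D2:**
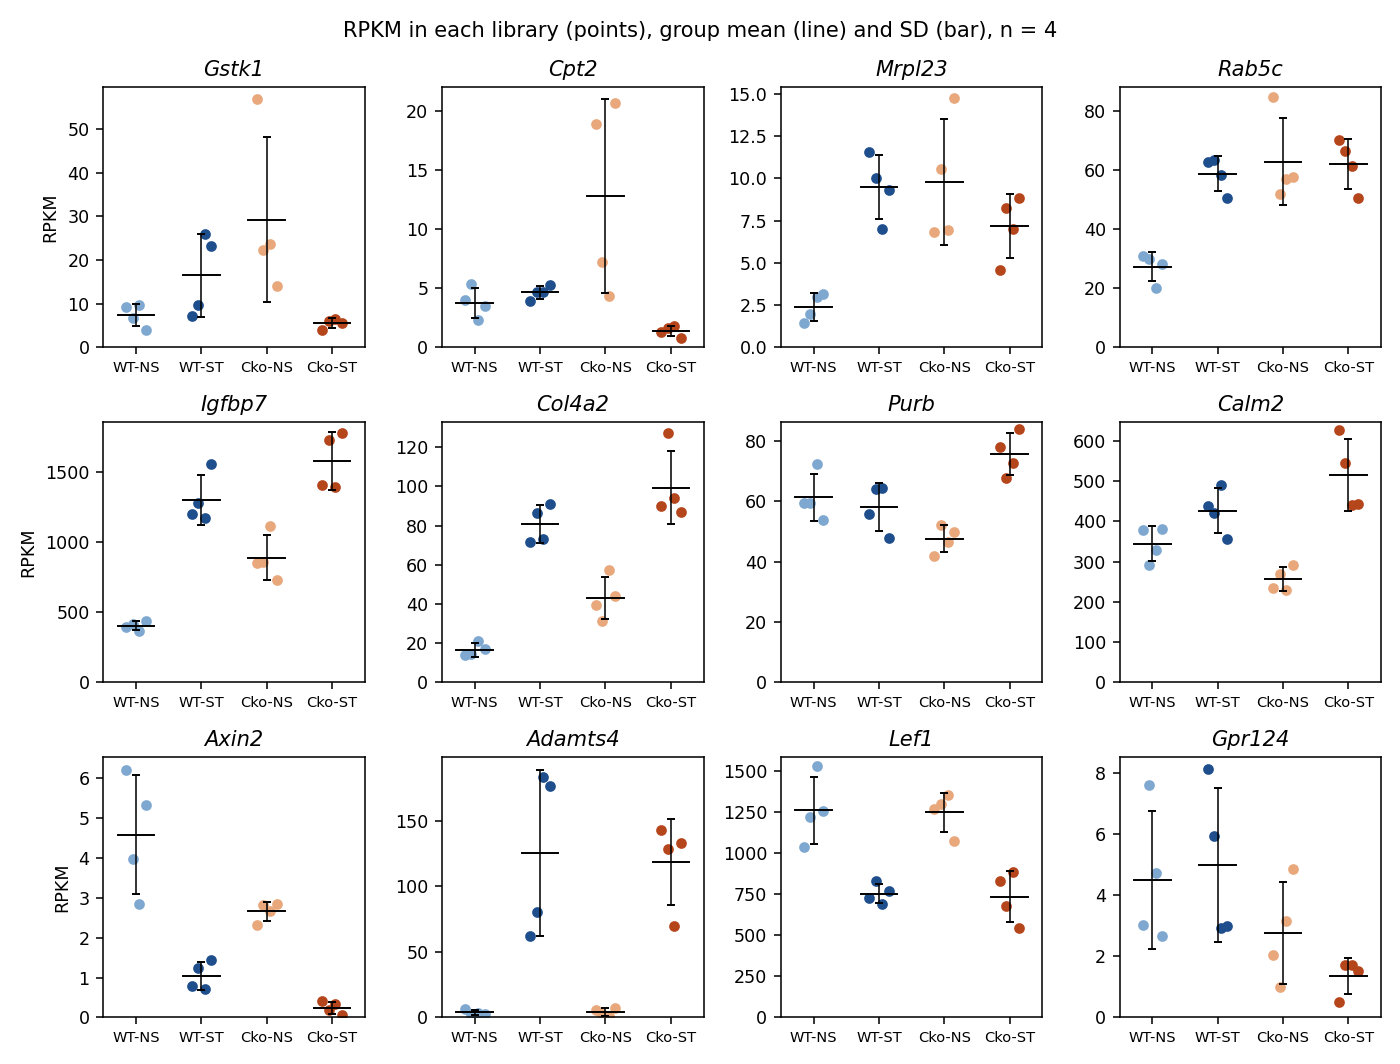
RPKM of 12 genes in each library (points), with group mean (line) and SD (bar), n = 4 per group. Gstk1 and Cpt2 are low in Cko-ST and high in Cko-NS, Mrpl23, Rab5c, Igfbp7 and Col4a2 are low in WT-NS, and Adamts4 and Lef1 move alike in both genotypes. Axin2 falls with stroke in both, to low levels, and every Cko-ST library lies below every WT-ST library.

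The vascular basement membrane, the sheet of matrix under the endothelium, held more genes of this kind than most lists examined. Of its 16 tested genes 0 passed the test, and 7 had an unadjusted p below 0.05, all lower in knockouts (Igfbp7, Col4a2, Col4a1, Lama5, Agrn, Fn1 and Sparcl1), against 5.82% of all genes. The list's median was -0.53 against -0.14 for all genes. After median-of-ratios scaling 3 were lower and 1 was higher below an unadjusted p of 0.05 (3.37% and 2.46% of all genes). The median was then -0.35, and with the trend by GC content removed it was -0.18, against 0.00 for all genes in both. Of the 16, 5 rose and 1 fell with stroke in controls (8.46% and 4.84% of all genes), and 7 rose and 4 fell in knockouts (6.44% and 8.71%).

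Igfbp7 (chr5:77349240-77408041, minus strand), a secreted binding protein of the vessel wall, measured 396, 415, 366 and 441 RPKM in WT-NS and 1197, 1278, 1173 and 1556 in WT-ST. It measured 851, 855, 1112 and 732 RPKM in Cko-NS and 1406, 1728, 1392 and 1782 in Cko-ST. Stroke and non-stroke libraries did not overlap in either genotype, Cko-NS lay wholly above WT-NS, and the 2 stroke groups overlapped. Igfbp7 rose by 1.68 in controls and by 0.84 in knockouts (adjusted p = 9.92e-07 and 0.00078), and the difference was -0.84 ± 0.21 (95% interval -1.27 to -0.41, adjusted p = 0.68), or -0.40 with the GC trend removed.

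Col4a2 and Col4a1 encode the chains of the type IV collagen network of basement membranes and start head to head on chromosome 8. In the RefSeq annotation of GRCm38.p6 the start of Col4a2 on the plus strand lies before the start of Col4a1 on the minus strand, so that both transcripts cover the 22 bases between them. The window from 250 bases before to 50 after the Col4a2 start (chr8:11312555-11312854, plus strand) is shown because these 2 genes share it and their values follow each other, and its capitals mark the 22 shared bases.
Col4a2: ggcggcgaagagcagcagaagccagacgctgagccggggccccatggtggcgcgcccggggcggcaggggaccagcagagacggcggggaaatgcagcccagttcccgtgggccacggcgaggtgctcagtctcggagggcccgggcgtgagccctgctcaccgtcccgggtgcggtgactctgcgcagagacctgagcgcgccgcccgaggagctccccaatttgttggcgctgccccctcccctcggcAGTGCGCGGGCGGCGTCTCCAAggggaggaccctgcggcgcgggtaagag

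Col4a2 measured 13.7, 14.4, 21.3 and 17.0 RPKM in WT-NS and 71.7, 86.5, 73.0 and 91.1 in WT-ST. The knockouts had 39.3, 31.5, 57.3 and 43.9 RPKM in Cko-NS and 89.7, 127, 93.8 and 86.7 in Cko-ST. As for Igfbp7, Cko-NS lay above WT-NS and the stroke groups overlapped. It rose by 2.22 in controls and by 1.20 in knockouts, a difference of -1.02 ± 0.28 (95% interval -1.62 to -0.42, adjusted p = 0.68), or -0.55 with the GC trend removed.

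Col4a1 measured 22.3, 26.6, 39.9 and 21.6 RPKM in WT-NS, 106, 102, 123 and 121 in WT-ST, 56.5, 44.6, 62.3 and 49.8 in Cko-NS and 122, 166, 110.1 and 155 in Cko-ST. Its order of groups was that of Col4a2. The difference was -0.68 ± 0.28 (adjusted p = 0.68), or -0.26 with the GC trend removed. Lama5, a laminin chain of mature basement membranes, was named after its values were seen. Its stroke effect was 0.41 in controls and -0.62 in knockouts, neither past the threshold, with a difference of -1.04 ± 0.36 (adjusted p = 0.68).

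Genotype effects in each hemisphere give the same contrast from the other side, and they share libraries with it. Between the non-stroke hemispheres 31 genes passed the test (0.315% of those tested), 22 higher in knockouts (0.224%) and 9 lower (0.0915%), and between the stroke hemispheres 0 passed (0%), with 476 below an unadjusted p of 0.05 (4.84%). Igfbp7, Col4a2, Col4a1, Rab5c, Mrpl23, Actr1b and Srxn1 were among the higher ones, and Tfrc, Hbb-y, Echdc1 and Rnf146 among the lower ones. These counts were unstable: they were 1 and 0 without WT-NS 4, 8 and 3 without WT-NS 1, and 8 and 1 without Cko-NS 3, and the higher count was 41 without Cko-ST 4. In the 573 genes with a lower knockout effect, the median genotype difference was 0.81 in the non-stroke and -0.31 in the stroke hemisphere. Over all genes these medians were 0.11 and -0.03. The genotype difference was larger in size in the non-stroke hemisphere for 79.1% of the 573 genes, against 60.5% of all genes. Choosing genes by a negative difference favours a high value in the non-stroke and a low value in the stroke hemisphere, so these values describe the genes and are no separate result.

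The next genes are from the 12 with the lowest p on the positive side. Purb (chr11:6467599-6475917, minus strand), which encodes a protein that binds purine-rich DNA and RNA, measured 59.4, 59.5, 72.2 and 53.9 RPKM in WT-NS and 55.9, 64.1, 64.6 and 47.8 in WT-ST, which overlap. In knockouts it measured 41.8, 52.0, 46.5 and 49.98 RPKM in Cko-NS and 77.9, 67.6, 72.8 and 84.0 in Cko-ST, with Cko-NS below WT-NS and Cko-ST above WT-ST in every library. Its stroke effect was -0.08 in controls and 0.66 in knockouts (adjusted p = 0.0076), a difference of 0.73 ± 0.22 (adjusted p = 0.68).

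Calm2, 1 of the genes for the calcium sensor calmodulin, measured 379, 291, 328 and 381 RPKM in WT-NS and 439.5, 420.4, 490.3 and 357 in WT-ST. It measured 234, 270.4, 231 and 291 RPKM in Cko-NS and 626, 546, 441 and 444 in Cko-ST. Only the knockout hemispheres were separated from each other. The difference was 0.68 ± 0.22 (adjusted p = 0.68). Slbp, which binds the stem-loop of histone mRNAs, had an effect of -0.03 in controls and 0.96 in knockouts (adjusted p = 0.0065), a difference of 1.00 ± 0.31, and Gtf2f2, a subunit of the polymerase II factor TFIIF, differed by 1.31 ± 0.45 (adjusted p = 0.68 for both).

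Among kinases, Prkd3 (protein kinase D3) fell by 1.14 with stroke in controls (adjusted p = 0.0040) and had an effect of -0.06 in knockouts, a difference of 1.08 ± 0.34. It measured 23.0, 20.9, 21.4 and 27.0 RPKM in WT-NS, 9.23, 12.2, 9.63 and 8.85 in WT-ST, 14.9, 17.0, 21.5 and 8.45 in Cko-NS and 13.6, 14.3, 17.6 and 11.4 in Cko-ST. WT-NS and WT-ST did not overlap, and the knockout hemispheres did. Pik3cb, a catalytic subunit of phosphoinositide 3-kinase, differed by 1.08 ± 0.33, and Ahi1 and Ints12, genes of the primary cilium and of the Integrator complex, by 1.38 ± 0.46 and 1.28 ± 0.45 (adjusted p = 0.68 for all 4).

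Besides Col4a1 and Col4a2, which overlap at their starts and not at the counted 3' ends, named genes adjoin in 2 places. Reads of these latter neighbours may not be told apart, since the counting rule is not given in the sources used here. Echdc1 (chr10:29313166-29347469, plus strand), an enzyme that removes faulty acyl-CoA products, differed by 0.75 ± 0.22. Rnf146, a ubiquitin ligase that marks Axin for decay and so promotes Wnt signalling, overlaps its end on the other strand over 3294 bases and differed by 0.70 ± 0.23, and the 2 should be read as 1 observation. Sf3b4, a splicing factor gene with the largest positive difference of the 12 (2.10 ± 0.60, or 1.19 with a pseudocount of 5), starts 613 bases after the end of Mtmr11 on the same strand, whose difference was negative. Sf3b4 measured 5.35, 5.59, 9.88 and 4.28 RPKM in WT-NS, 2.73, 4.07, 2.31 and 2.05 in WT-ST, 0.652, 2.38, 3.07 and 2.69 in Cko-NS and 3.45, 8.20, 2.498 and 14.8 in Cko-ST.

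Hbb-y, an embryonic beta-like globin gene whose reads may be shared with its paralogs, measured 23.5, 13.7, 16.2 and 15.6 RPKM in WT-NS and 1.5001, 1.49, 1.47 and 0.401 in WT-ST. It measured 2.45, 6.61, 4.45 and 4.97 RPKM in Cko-NS and 0.702, 0.828, 0.325 and 0.246 in Cko-ST. Stroke libraries were lower in both genotypes, and WT-NS was above Cko-NS. The difference was 1.21 ± 0.43 (adjusted p = 0.68). The red-cell and platelet markers, 8 of them tested, had no member with an unadjusted p below 0.05, and their sum was 9144 to 16008 RPKM in WT-NS, 4120 to 11469 in WT-ST, 6454 to 43300 in Cko-NS and 1649 to 21011 in Cko-ST. The medians of that sum were 14111, 6436, 14671 and 4383 RPKM in the same order of groups. By median the stroke groups were the lower ones, as for Hbb-y, while WT-NS was not above Cko-NS. The part of red cells in the values of Hbb-y was not tested.

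**Figure D3:**
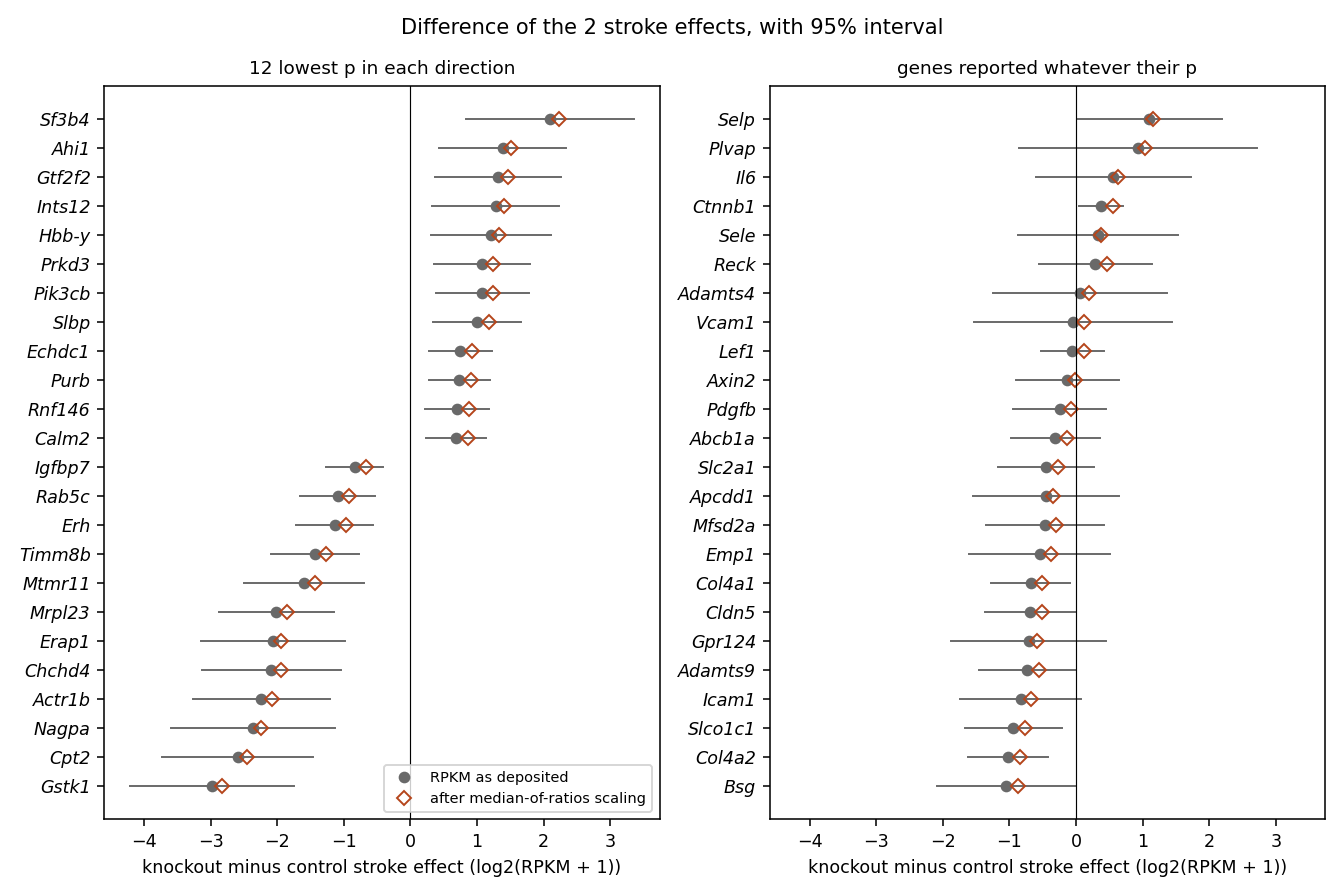
Difference of the 2 stroke effects (knockout minus control, log2(RPKM + 1)) as a point with its 95% interval, and the same after median-of-ratios scaling as an open diamond, for the 24 genes with the lowest p (left) and 24 genes reported whatever their p (right), less those already on the left. Scaling moves each value to the right by a similar step, and the Wnt pathway genes on the right cross 0 except Ctnnb1.

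The Wnt pathway itself showed no difference past the threshold. Among its 17 tested targets 0 passed and 0 had an unadjusted p below 0.05 in either direction, with a median of -0.13 against -0.14 for all genes. Axin2, a feedback inhibitor that reports pathway activity, measured 6.21, 3.96, 2.84 and 5.33 RPKM in WT-NS and 0.786, 1.24, 0.717 and 1.43 in WT-ST. It measured 2.31, 2.82, 2.68 and 2.84 RPKM in Cko-NS and 0.409, 0.183, 0.332 and 0.0716 in Cko-ST. It fell with stroke in both genotypes (-1.43 and -1.56), each Cko-ST library lay below each WT-ST library, and the difference was -0.13 ± 0.37 with an interval of -0.91 to 0.65. Its sign is not fixed, as it was 0.098 under quantile normalization and 0.11 with a pseudocount of 5, and its size depends on the pseudocount, with -1.07 at 0.1.

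Lef1, a transcription factor of the pathway, measured 1038, 1219, 1534 and 1255 RPKM in WT-NS, 726, 832, 693 and 768 in WT-ST, 1269.7, 1298, 1353 and 1077 in Cko-NS and 833, 682, 887 and 543 in Cko-ST. Stroke lowered it in both genotypes, by -0.73 and -0.78, and groups of the same hemisphere overlapped. The difference was -0.05 with an interval of -0.52 to 0.42, among the tightest here, and 0.12 after scaling. Slc2a1 differed by -0.45 (interval -1.17 to 0.28), with Cko-ST 3 at 4118 RPKM and the other Cko-ST libraries at 2149 to 2342. Cko-NS 4 was at 3242 RPKM and the other Cko-NS libraries at 6466 to 7472. Cko-ST 3 and Cko-NS 4 are the libraries whose Y-linked genes and Xist go against their label. Apcdd1, low throughout, differed by -0.45 (interval -1.55 to 0.65).

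The 20 tested receptors and components of the pathway had a median of 0.11, with 0 past the threshold. Only 1, Ctnnb1, was higher below an unadjusted p of 0.05 (1.2% of all genes). Ctnnb1 measured 2114, 2482, 2283 and 2196 RPKM in WT-NS, 2118, 1982, 2149 and 1927 in WT-ST, 1629, 1996, 1502 and 1627 in Cko-NS and 2052, 1981, 1874 and 1948 in Cko-ST. Cko-NS lay below WT-NS, and the stroke groups overlapped. The difference was 0.37 ± 0.16 (adjusted p = 0.68). Over the alternative ways of processing it kept its sign and ran from 0.07 to 0.55. Reck fell with stroke in both genotypes (-1.35 and -1.07), and the difference was 0.29 with an interval of -0.56 to 1.13.

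Of 34 barrier transport genes tested, 21 fell with stroke in controls and 26 in knockouts, where 4.84% and 8.71% of all genes fell. For the difference 0 passed, 5 were lower (Slc22a8, Slco1c1, Slc38a3, Slc3a2 and Bsg) and 1 was higher (Tfrc) below an unadjusted p of 0.05 (5.82% and 1.2% of all genes), and the median was -0.38 (-0.20 after scaling and -0.26 with the GC trend removed). Slc22a8, an organic anion transporter, measured 23.9, 31.5, 21.6 and 30.6 RPKM in WT-NS and 11.2, 15.3, 4.23 and 20.7 in WT-ST. It measured 20.0, 28.7, 35.3 and 39.4 RPKM in Cko-NS and 5.68, 3.36, 4.81 and 2.95 in Cko-ST. Stroke libraries lay below non-stroke libraries in both genotypes, and the stroke groups overlapped through WT-ST 3. It fell by 1.17 in controls and by 2.60 in knockouts, a difference of -1.43 ± 0.49 (adjusted p = 0.68).

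Slco1c1, which carries thyroid hormone into the brain, measured 309, 368, 313 and 378 RPKM in WT-NS and 126, 161, 63.4 and 144 in WT-ST. In knockouts it measured 289, 272, 236 and 272 RPKM in Cko-NS and 36.4, 40.2, 72.2 and 46.4 in Cko-ST. It fell by 1.54 in controls and by 2.48 in knockouts, a difference of -0.94 ± 0.35 (adjusted p = 0.68). Bsg, the partner of lactate transporters, differed by -1.05 ± 0.49 (adjusted p = 0.70).

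Tfrc, the transferrin receptor that brings iron across the barrier, went the other way and was named after its values were seen. It measured 845, 1084, 844 and 1235 RPKM in WT-NS and 265, 436, 208 and 387 in WT-ST. In knockouts it measured 384, 387, 262 and 455 RPKM in Cko-NS and 237, 178, 203 and 230.0 in Cko-ST. WT-NS lay above all other groups. Tfrc fell by 1.67 in controls and by 0.79 in knockouts, a difference of 0.88 ± 0.31 (adjusted p = 0.68). The efflux pump gene Abcb1a fell in both genotypes, by 1.43 and 1.74, with a difference of -0.31 (interval -0.97 to 0.35), and the lipid transporter Mfsd2a differed by -0.47 (interval -1.35 to 0.41).

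Of 15 tight junction genes 0 passed and 1, Cldn5, was lower below an unadjusted p of 0.05 (5.82% of all genes). Cldn5, the main claudin of brain endothelium, measured 92.8, 127, 106 and 124 RPKM in WT-NS, 99.6, 95.7, 84.1 and 195 in WT-ST, 149.5, 158, 162 and 179.9 in Cko-NS and 72.0, 95.7, 115 and 127 in Cko-ST. Cko-NS lay above WT-NS and above Cko-ST, and the high WT-ST value belongs to WT-ST 4. The difference was -0.69 ± 0.32 (adjusted p = 0.70), or -0.23 with the GC trend removed. Plvap, which marks leaky endothelium, differed by 0.93 with an interval of -0.86 to 2.73 at levels of 0.618 to 16.8 RPKM.

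Leukocyte adhesion genes had a median of 0.00 over 11 tested, with 0 past the threshold. Selp (P-selectin), the receptor that first slows leukocytes, was the only member below an unadjusted p of 0.05, on the higher side (1.2% of all genes). It measured 0.434, 0.544, 0 and 0.598 RPKM in WT-NS and 3.40, 4.26, 2.16 and 8.73 in WT-ST. In knockouts it measured 0, 0.399, 0.0501 and 0.105 RPKM in Cko-NS and 7.08, 10.8, 4.10 and 13.3 in Cko-ST. Stroke libraries were higher in both genotypes, and the 2 stroke groups overlapped. The stroke effect was 1.91 in controls and 3.02 in knockouts, a difference of 1.10 ± 0.52 (adjusted p = 0.70), which ran from 0.58 with a pseudocount of 5 to 1.95 with 0.1.

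Sele (E-selectin) had effects of 3.01 and 3.34 and a difference of 0.33 (interval -0.88 to 1.53), and Vcam1 had a difference of -0.05 (interval -1.53 to 1.44). Icam1, which holds leukocytes firmly, went the other way at -0.83 ± 0.43 (adjusted p = 0.72). It measured 1.81, 5.21, 2.83 and 3.17 RPKM in WT-NS, 18.6, 25.1, 25.6 and 47.8 in WT-ST, 9.15, 6.15, 15.5 and 7.998 in Cko-NS and 38.0, 37.5, 42.3 and 38.4 in Cko-ST. Cko-NS lay above WT-NS, and the stroke groups overlapped only through WT-ST 4.

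Of 32 inflammation genes 0 passed. Below an unadjusted p of 0.05, 3 were lower in knockouts (Socs3, Bcl3 and Rela, the last 2 of the NF-kappa-B pathway) and 1 was higher (Csf3, a growth factor of neutrophils), against 5.82% and 1.2% of all genes. The median was -0.29 (-0.18 after scaling and -0.03 with the GC trend removed). Socs3, a feedback inhibitor of cytokine signalling, measured 7.44, 5.78, 7.09 and 2.95 RPKM in WT-NS and 31.1, 22.5, 26.0 and 44.2 in WT-ST. It measured 12.5, 12.8, 12.2 and 30.3 RPKM in Cko-NS and 34.2, 26.0, 20.7 and 35.3 in Cko-ST. Cko-NS lay above WT-NS, with Cko-NS 4 the highest, and the stroke groups overlapped. The difference was -1.42 ± 0.45 (adjusted p = 0.68). Il6 rose in both genotypes, by 2.24 and 2.80, with a difference of 0.56 (interval -0.60 to 1.72).

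Csf3, named after its values were seen, was listed at 0 in all WT-NS libraries and measured 0.114, 1.12, 0.335 and 3.37 RPKM in WT-ST, 0, 0, 0.190 and 0 in Cko-NS and 4.73, 4.23, 8.78 and 1.30 in Cko-ST, and the stroke groups overlapped. Interferon and MHC genes had 0 of 26 past the threshold and 4 lower below an unadjusted p of 0.05 (Isg15, Gbp2, Tap2 and Ifitm3), against 5.82% of all genes. Their median was -0.18 (0.00 after scaling). Isg15 differed by -1.51 ± 0.45 (adjusted p = 0.68).

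Blood leukocyte markers also differed between libraries. The 13 markers summed to 12.5, 0.182, 0 and 0.0515 RPKM in WT-NS, 14.5, 2.31, 31.3 and 106 in WT-ST, 19.4, 11.0, 10.5 and 90.1 in Cko-NS and 7.71, 15.1, 24.1 and 5.86 in Cko-ST, and 3 of them were tested. S100a8, a neutrophil protein gene, had a difference of -3.16 ± 1.29 (adjusted p = 0.68), and Retnlg, another, -2.90 ± 1.32. Cko-NS 4 held 60.0 RPKM of S100a8 and 3.51 to 7.74 stood in the other Cko-NS libraries, while 3 of 4 WT-NS libraries were at 0. Cko-NS 4 is also the highest Cko-NS library for Socs3 and Actr1b. The part of these cells in the results was not tested. Without Cko-NS 4 the difference of Socs3 kept its sign, and 0 genes passed, as with all 16 libraries. That does not bear on the part of these cells, since the other Cko-NS libraries also held the markers.

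Angiogenesis genes had 0 of 22 past the threshold, with Esm1 and Calcrl higher and Flt4 and Robo4 lower below an unadjusted p of 0.05 (1.2% and 5.82% of all genes). Esm1, a marker of sprouting tip cells named after its values were seen, had the largest positive difference in the lists (2.45 ± 1.12, adjusted p = 0.70), and it rests in part on 1 library. Its stroke effect was -1.68 in controls and 0.77 in knockouts (adjusted p = 0.18 and 0.55 in limma). Controls measured 13.7, 14.5, 17.7 and 5.33 RPKM in WT-NS and 3.63, 4.72, 1.74 and 2.49 in WT-ST. Cko-ST measured 2.35, 5.56, 0.352 and 60.9 RPKM, the last in Cko-ST 4, and without that library the difference was 1.37. Robo4, a receptor that steadies vessels, differed by -0.93 ± 0.32, with 132 to 179 RPKM in Cko-NS above the 53.0 to 93.2 in WT-NS.

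In lists of housekeeping genes most members lay slightly below 0. Of 40 cytosolic ribosome genes 0 passed, 37 were below 0 (61.8% of all genes), 10 were lower below an unadjusted p of 0.05 (5.82% of all genes), and the median was -0.45 (-0.27 after scaling and -0.20 with the GC trend removed). Rps27 was the lowest at -1.07 ± 0.36 (adjusted p = 0.68), with 81.1 to 189 RPKM in WT-NS and 289 to 364 in Cko-NS. Of 43 respiratory chain genes 0 passed, 39 were below 0 and 6 were lower below that p, with a median of -0.39 (-0.22 after scaling and -0.21 with the GC trend removed). Ndufb7, a subunit of complex I, rose by 0.93 with stroke in controls (adjusted p = 0.0084) and had an effect of 0.02 in knockouts, a difference of -0.91 ± 0.31 (adjusted p = 0.68).

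In some other lists most intervals were narrow. For endothelial transcription factors the interval lay between -1 and 1 in 18 of 22 genes, and for the actin cytoskeleton in 17 of 23. The other 4 of the former were Tal1, Gata2, Foxo1 and Tcf15. Of these only Tcf15, a factor of quiescent capillary endothelium, had an unadjusted p below 0.05, with a difference of -1.91 ± 0.61 (adjusted p = 0.68). It measured 6.396, 18.5, 24.1 and 12.0 RPKM in Cko-NS and 3.04, 1.21, 1.81 and 0.439 in Cko-ST, and 0.984 to 7.51 over the control libraries. Srxn1, which repairs oxidised peroxiredoxins, rose by 2.40 in controls and by 0.97 in knockouts, a difference of -1.43 ± 0.39 (adjusted p = 0.68).

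**Figure D4:**
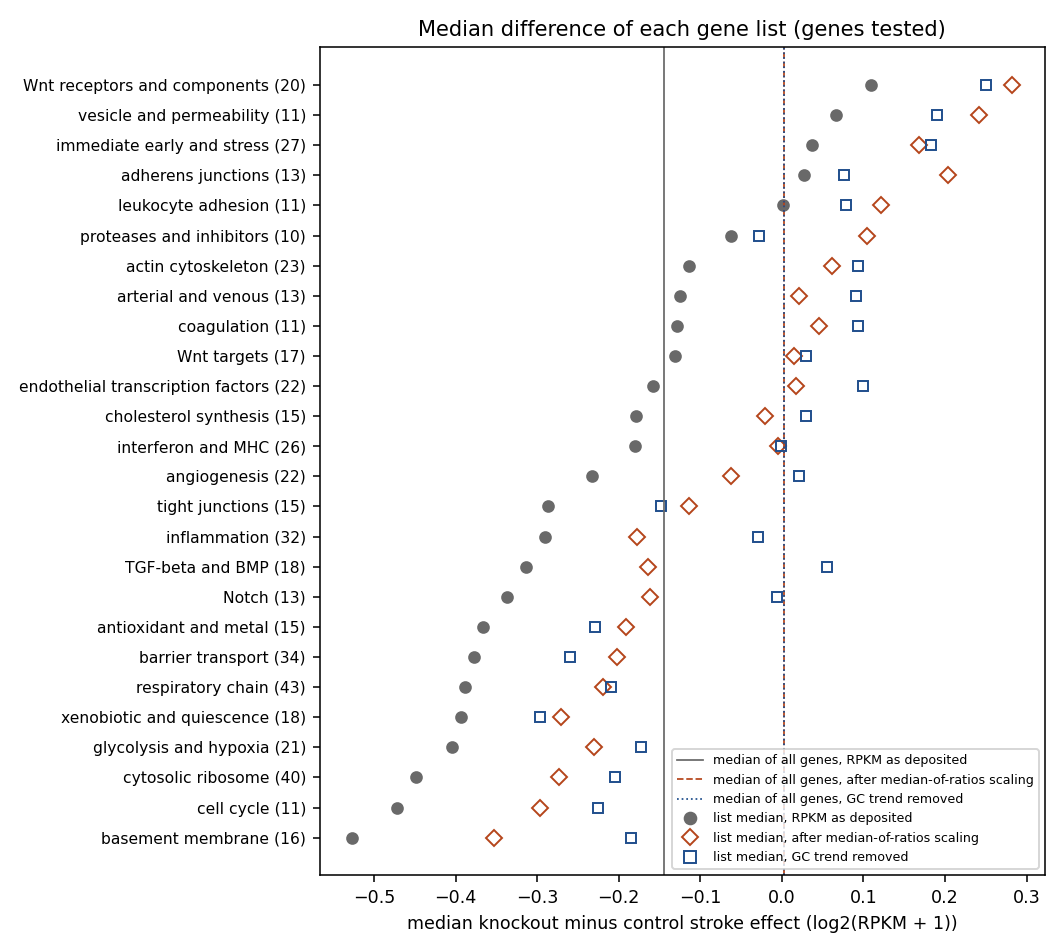
Median difference of the 2 stroke effects (log2(RPKM + 1)) in each of the 26 pathway lists, with the number of genes tested in brackets, as deposited (filled circle), after median-of-ratios scaling (diamond) and with the GC trend removed (square), and lines at the medians of all genes (-0.14, 0.00 and 0.00). Basement membrane (-0.53) lies lowest as deposited, and the list of Wnt receptors and components (0.11) lies highest.

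The size of the difference also followed the GC content of the transcripts, which was found for 9748 of the tested genes (99.1%). In 5 equal bins of genes, from the lowest GC content to the highest, the median difference was 0.01, -0.05, -0.11, -0.23 and -0.40. Genes with an unadjusted p below 0.05 and a lower knockout effect numbered 37 in the lowest and 218 in the highest bin. The genotype effect in the non-stroke hemisphere ran from -0.05 to 0.35 over the same bins, and that in the stroke hemisphere from -0.05 to -0.01 with no order. For each library the mean log2(RPKM + 1) of the lowest GC bin was taken from that of the highest. Each gene was first centred on its mean over the 16 libraries. The result was -0.38 to -0.13 in WT-NS and 0.05 to 0.31 in Cko-NS, which do not overlap. It was -0.20 to 0.39 in WT-ST and -0.10 to 0.21 in Cko-ST, which do. With the trend by GC content removed from each library, 0 of 9748 genes passed (0%). Below an unadjusted p of 0.05 there were 470 (4.82%), 220 higher (2.26%) and 250 lower (2.56%). The median was then 0.00. Whether the trend arose in the cells or in the libraries was not tested. The difference also followed transcript length: in 5 equal bins from the shortest to the longest the median went from -0.29 to -0.06. Genes with an unadjusted p below 0.05 and a lower knockout effect numbered 187 in the shortest and 48 in the longest bin. The separate parts of length and GC content were not tested.

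**Figure D5:**
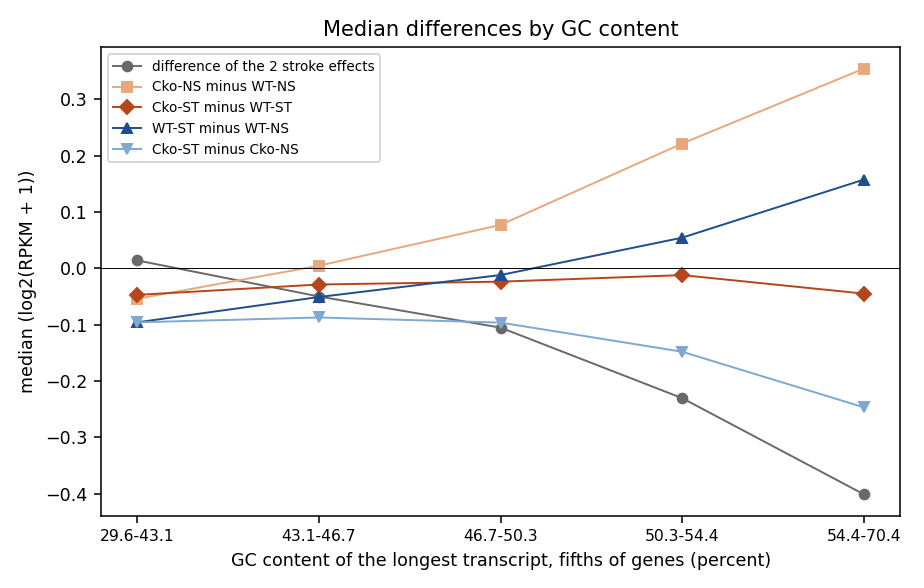
Median of each contrast (log2(RPKM + 1)) in 5 equal bins of genes by GC content of the longest transcript, as lines over 9748 genes. The difference of the 2 stroke effects falls from 0.01 to -0.40 and the genotype effect of the non-stroke hemisphere rises from -0.05 to 0.35, while that of the stroke hemisphere stays between -0.05 and -0.01.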

How the data were processed

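RNA was sequenced from sorted brain endothelial cells. Per the labels' protocols, polyadenylated RNA was amplified from its 3' end with the NuGen Ovation 3'-DGE kit. The deposited table holds the authors' RPKM. The submitters' processing notes also name edgeR and mm10, with no role. Aligner, annotation, gene lengths and strand use: not given in the sources used here. Of 24260 rows, 54 rows that shared 23 names were left out, 27 rows with a date as name were never named, and 8 columns of no described sample were not used. Xist and 4 Y-linked genes were left out of the tests.

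Log2(RPKM + 1) values were fitted in limma 3.58.1 (R 4.3.3) as 4 group means over 16 libraries with n = 4 each, for genes with a mean of at least 1 RPKM (the nearest means on either side were 1.00 and 0.999). Moderated tests (eBayes with trend) were two-sided, adjusted by Benjamini-Hochberg over 9838 genes with a threshold of 0.05, and were tested on simulated data. Depth was estimated from the steps of low RPKM values. Its relative scale between libraries is firm and its absolute scale rests on the commonest low value being 1 read, so no reads per gene are given and no count test was used. GC content and coordinates came from GENCODE for GRCm38, and the promoter from RefSeq.

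Named genes were the 12 with the lowest p in each direction with a group mean of at least 5 RPKM (none passed), the member with the lowest p of each of 26 pathway lists, 24 genes always reported, the 6 largest average stroke effects in each direction (1 gene of these is not reported here), and 6 genes added after their values were seen. The average stroke effect was added after seeing the data. Members, lists and tests were chosen with earlier results of these data known. Alternatives were other scalings, pseudocounts, filters and variance settings, sex, replicate blocks, single libraries left out and removal of the GC trend.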

Additional observations from a re-analysis of the deposited data

Results flagged for a closer look

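In 28 of 324 groups of 4 libraries of the named genes (8.64%), 1 library stood apart from the other 3. In each, the gap to the nearest library as a share of the group's range exceeded Dixon's 95% critical value. That value flags about 1 in 20 groups of normally distributed values. The rate does not apply here, since the values were RPKM without a log and some genes were named after their values were seen. The share is therefore a description, and whether it exceeds chance was not tested.

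Cko-NS 4 was high for Actr1b (43.5 RPKM against 11.6 to 15.6 in the other 3), Cytl1 (87.3 against 5.55 to 9.28), S100a8 (60.0 against 3.51 to 7.74) and Socs3 (30.3 against 12.2 to 12.8). Cko-NS 3 held 0.190 RPKM of Csf3, which was listed at 0 in the others. Cko-ST 3 was high for Slc2a1 (4118 against 2149 to 2342), Abcb1a (78.4 against 42.6 to 48.7), Ier3 (90.8 against 63.4 to 67.4) and Vstm2b (2.63 against 0.105 to 0.297). Cko-ST 4 was high for Esm1 (60.9 against 0.352 to 5.56) and low for Cdkn1a (24.0 against 40.9 to 44.1), and Cko-ST 1 was low for Gpr124 (0.5002 against 1.52 to 1.72).

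WT-ST 3 was high for Emp1 (2602 RPKM against 1231 to 1433) and low for Sult1a1 (15.8 against 38.5 to 41.6) and Ndufb7 (36.0 against 52.3 to 54.8). WT-ST 4 was high for Cldn5 (195 against 84.1 to 99.6), Sele (35.8 against 4.99 to 9.92), Lama5 (14.6 against 8.20 to 9.28) and Nagpa (12.6 against 5.04 to 6.15) and low for Hbb-y (0.401 against 1.47 to 1.5001). WT-ST 1 was high for Cytl1 (12.2 against 0.626 to 2.12) and low for Erh (109 against 158 to 165). In WT-NS, library 3 was high for Apln (5.81 against 1.56 to 2.09), library 4 low for Tagln2 (24.8 against 76.8 to 81.6), and library 2 high for Nagpa (4.55 against 0.536 to 0.940). WT-NS 1 held 5.91 RPKM of S100a8 and 4.84 of Retnlg, and WT-NS 4 held 0.0630 of Il6, genes listed at 0 in the other 3 libraries.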

How the results depend on the processing

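Under all 30 alternatives 0 genes passed the test of the difference, in either direction. The lowest adjusted p was 0.0797 without Cko-NS 3 and 0.0905 with array weights, which count libraries by their noise. Counts below an unadjusted p of 0.05 (118 higher, 573 lower) ran from 95 to 143 and from 419 to 797 with 1 library left out. Scaling moved their balance: median-of-ratios scaling gave 242 and 332, quantile normalization 259 and 318, and removal of the GC trend 220 and 250, so that 82.9% lower became 57.8%, 55.1% and 53.2%. No filter gave 238 higher genes, and a mean of at least 5 RPKM gave 67 higher and 369 lower.

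With 1 library left out, controls had 650 to 928 raised and 286 to 546 lowered genes, and knockouts 450 to 661 and 565 to 896. Sex by label as a covariate left 558 lowered genes in knockouts. The genotype effect of the non-stroke hemisphere (22 higher, 9 lower) ran from 1 to 41 and from 0 to 13, and that of the stroke hemisphere had 0 higher and 0 to 8 lower. Higher and lower counts in the non-stroke hemisphere were 14 and 15 with median-of-ratios scaling, 67 and 17 at a mean of at least 5 RPKM, 9 and 3 without a variance trend, 102 and 23 with array weights (and 5 lower in the stroke hemisphere), 13 and 5 with sex, and 49 and 16 without Cko-NS 4, Cko-ST 3 and Cko-ST 4. Lower genes were 14 with quantile normalization, and higher genes 9 with no filter and 3 with the GC trend removed. The cause was not tested.

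Of the 81 named genes 69 kept the sign of their difference under every alternative run, and 12 did not, none of them past the threshold. The main differences of these 12 ran from -0.57 for Vstm2b to 0.56 for Il6, and both of these genes turned only with a changed pseudocount. The turned values were 0.12 for Lef1 and 0.12 for Vcam1 with median-of-ratios scaling, 0.098 for Axin2 and 0.11 for Vcam1 with quantile normalization, -0.36 for Il6 and -0.098 for Rnd1 with a pseudocount of 0.1, and -0.00040 for Adamts4, 0.11 for Axin2, -0.023 for Sele and 0.071 for Vstm2b with a pseudocount of 5. They were 0.072 for Apln and -0.058 for Reck with array weights, 0.28 for Apln, -0.16 for Dixdc1 and 0.0063 for Lef1 with sex, and 0.048 for Apln, 0.20 for Axin2 and 0.21 for Pdgfb with the GC trend removed. Without Cko-NS 4, Cko-ST 3 and Cko-ST 4 they were 0.10 for Apln and -0.19 for Dixdc1. Leaving out 1 library gave ranges of -0.33 to 0.36 for Adamts4, -0.51 to 0.024 for Apln, -0.27 to 0.036 for Axin2, -0.15 to 0.084 for Lef1, -0.26 to 0.37 for Rnd1, -0.032 to 0.84 for Sele and -0.52 to 0.29 for Vcam1.

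Samples of the same number in the 2 hemispheres of a genotype are not said to be from 1 mouse. Their deviations correlated with r from 0.012 to 0.21, over 0.1 in 5 of 8 pairs. Pairing was to be assumed only with all 8 over 0.1, so they were not treated as paired, although 7 of 8 non-stroke and 7 of 8 stroke libraries correlated best with their own number, a hint from the data and not from the design. The replicate block over 8 pairs gave 0 genes past the threshold and 779 below an unadjusted p of 0.05 (157 higher, 622 lower), and a replicate block with the number shared by the 4 groups gave 0 and 750, with 43 and 17 genes in the non-stroke genotype effect. The GC trend and this last block were chosen after seeing the data. Low RPKM values rest on few reads, and the libraries of lowest depth limit them most.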

Other observations

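The summed level of the 10 oligodendrocyte markers, genes of the cells that make myelin, followed the library number in all 4 groups. Libraries 1, 2, 3 and 4 summed to 2085, 370.5, 624 and 929 RPKM in WT-NS, 1149, 64.3, 183 and 928 in WT-ST, 1116, 73.3, 100.1 and 652 in Cko-NS and 456, 56.7, 80.6 and 769 in Cko-ST. Library 2 was the lowest in each group, and library 1 the highest except in Cko-ST, where library 4 was. Of the 9 markers tested none had an unadjusted p below 0.05 for the difference of the stroke effects, and their median was 0.32. The labels do not say what libraries of 1 number share.

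The astrocyte markers summed to 245 to 301 RPKM in WT-NS and 317 to 372 in Cko-NS, against 723 to 1168 in WT-ST and 995 to 1085 in Cko-ST. Most of the sum was Gja1, the gap junction gene for connexin 43, at 218 to 282 RPKM in WT-NS, 713 to 1162 in WT-ST, 304 to 359 in Cko-NS and 990 to 1074 in Cko-ST. Gfap, the defining astrocyte gene, was at most 0.528 RPKM. Only 4 of the 10 markers were tested, with 0 below an unadjusted p of 0.05 for the difference of the stroke effects. Their median stroke effects were -0.32 in controls and -0.70 in knockouts, and Gja1 was the 1 that rose in each genotype. The 9 fibroblast markers summed to at most 2.58 RPKM in any library, and 0 were tested.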
